A study of Mus musculus with 32 samples.

Results

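The 2′,5′-oligoadenylate synthetase (Oas) genes encode sensors of double-stranded RNA, and 5 of them were described here: Oas1a, Oas2, Oas3, Oasl1 and Oasl2. They were chosen by name from the 45706 gene identifiers in the expression tables. All 5 passed the filter on low counts that left 15186 genes tested. RNA was measured in haematopoietic stem and progenitor cells (HSPCs), sorted from mouse marrow as lineage-negative, Kit-positive, Sca1-positive cells that carried both CD45.1 and CD45.2. The design asks whether such normal cells, after sharing a marrow with a leukaemia that then regressed, differ at rest or in their answer to an inflammatory challenge.

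There were 4 groups of 4 replicates. Experienced LPS and experienced PBS mice were lethally irradiated C57BL/6J (CD45.2) recipients of 800000 wild-type marrow cells (CD45.1+/2+) and 200000 marrow cells homozygous for inducible human MLL-AF9 and for rtTA, the doxycycline-responsive activator. Naive LPS and naive PBS mice received the same number of wild-type cells with 200000 cells that were homozygous for rtTA and lacked MLL-AF9. Doxycycline began 6 to 8 weeks after transplantation, was given for 5 weeks to drive leukaemia and was withdrawn for 4 weeks. The labels do not say whether naive mice received it too. Lipopolysaccharide (LPS), a component of bacterial outer membranes that Toll-like receptor 4 detects, or phosphate-buffered saline (PBS) was given 24 h before sacrifice. The sequenced cells of every group were of wild-type origin and carried no transgene, so the fusion acted in their neighbours only, and all groups had been transplanted into irradiated hosts. Whether each replicate was 1 mouse or pooled mice is not in the labels, so p-values speak of the spread between these samples only.

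Oas enzymes bind double-stranded RNA and then join ATP into short chains linked 2′ to 5′, called 2-5A. These chains act as second messengers that set off the cutting of viral and cellular RNA and thereby limit protein synthesis. The genes are transcribed in response to type I and type III interferon through the factor ISGF3, which binds interferon-stimulated response elements (ISREs), and they serve widely as markers of interferon exposure, also in HSPCs. Oas1a carries a single Oas domain, while Oas2 and Oas3 carry repeated ones, and human OAS3 favours long RNA duplexes. The Oas-like proteins end in ubiquitin-like domains: mouse Oasl2 makes 2-5A, whereas mouse Oasl1 does not and represses translation of Irf7.

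All members lie on chromosome 5 (GRCm38, coordinates from GENCODE's annotation). Oas1a (ENSMUSG00000052776) spans chr5:120896256-120907521 on the minus strand, Oas2 (ENSMUSG00000032690) chr5:120730333-120749853 on the minus strand and Oas3 (ENSMUSG00000032661) chr5:120753098-120777661 on the minus strand. These 3 belong to a cluster of 10 Oas genes within 191.3 kb. Oasl1 (ENSMUSG00000041827, chr5:114923240-114937915) and Oasl2 (ENSMUSG00000029561, chr5:114896936-114912234) form a plus-strand pair within 41.0 kb, 5.79 Mb from that cluster. Annotated genes on the opposite strand overlap Oas2 (Gm43068) and Oasl1 (Gm13822). The sources used here do not give the strand setting of the counting. However, 0% of the 50-base windows in transcripts of Oas2 and Oasl1 occur in another gene's transcripts, read on either strand.

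The 200 bases before the start site are printed below because ISREs before the start are the sites through which interferon is known to drive these genes. RefSeq (GRCm38.p6) gave a promoter for 4 of the 5 members, all except Oas2. Oas1g, the paralogue nearest to Oas1a in sequence, is shown for comparison. Each sequence runs 5′ to 3′ on the gene's own strand and ends at the base before the start. Capitals mark matches, on either strand, to an ISRE core (GAAA, any 2 bases, GAAA) or to an IRF core (AA, any 2 bases, GAAA), which lies inside the ISRE core. The windows are chr5:120907526-120907725 (minus) for Oas1a, chr5:120887614-120887813 (minus) for Oas1g, chr5:120777660-120777859 (minus) for Oas3, chr5:114923040-114923239 (plus) for Oasl1 and chr5:114896734-114896933 (plus) for Oasl2.
Oas1a: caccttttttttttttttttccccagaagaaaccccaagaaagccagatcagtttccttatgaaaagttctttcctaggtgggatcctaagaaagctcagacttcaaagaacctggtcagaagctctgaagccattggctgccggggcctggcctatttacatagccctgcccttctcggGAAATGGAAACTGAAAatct
Oas1g: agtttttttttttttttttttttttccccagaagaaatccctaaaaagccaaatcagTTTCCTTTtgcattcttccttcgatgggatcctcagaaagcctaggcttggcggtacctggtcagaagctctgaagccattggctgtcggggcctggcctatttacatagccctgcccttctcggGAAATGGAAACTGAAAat
Oas3: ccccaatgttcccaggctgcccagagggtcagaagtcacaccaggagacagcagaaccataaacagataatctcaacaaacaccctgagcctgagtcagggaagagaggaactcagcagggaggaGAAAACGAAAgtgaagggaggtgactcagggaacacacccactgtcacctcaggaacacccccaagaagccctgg
Oasl1: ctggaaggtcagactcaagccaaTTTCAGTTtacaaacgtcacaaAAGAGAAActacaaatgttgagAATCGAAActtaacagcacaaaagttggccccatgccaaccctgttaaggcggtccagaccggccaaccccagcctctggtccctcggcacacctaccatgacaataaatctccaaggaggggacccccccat
Oasl2: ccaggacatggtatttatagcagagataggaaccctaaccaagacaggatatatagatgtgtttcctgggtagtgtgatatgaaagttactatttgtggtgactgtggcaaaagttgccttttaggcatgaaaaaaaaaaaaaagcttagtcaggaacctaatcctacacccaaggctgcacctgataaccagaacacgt

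Oas1a holds 2 overlapping ISRE cores, at bases -20 to -11 and -14 to -5 from the start. Oas1g holds the same pair at -18 to -9 and -12 to -3, and an IRF core on the opposite strand at -143 to -136. Over the 100 bases that end with that pair, Oas1a and Oas1g are identical at 91 positions. Oas3 holds 1 ISRE core at -75 to -66, and an IRF core at 5 to 12, which lies after the start and outside the printed bases. Oasl1 holds no ISRE core but 3 IRF cores between -177 and -126. The Oasl2 window holds neither motif, which says only that these letters are not in it. Among 32851 RefSeq promoters of 300 bases, which are longer than the printed windows and reach past the start, 3.44% hold an ISRE core and 23.92% an IRF core. A gamma-interferon activation site (TTC, any 3 bases, GAA), present in 8.3% of those promoters, was found among these genes in Oas1a only, at -98 to -90 (letters ttcaaagaa, not capitalised above). These matches are descriptions of sequence, and binding was not measured in the tables used here.

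Reads shared between paralogues touch Oas1a only among the members. RSEM divides a read that fits several genes in proportion to its estimates, so a gene that shares reads can have counts that are not whole. Oas2, Oas3, Oasl1 and Oasl2 had whole expected counts in 16 of 16 libraries, whereas those of Oas1a and Oas1g were not whole in any of the 16. In GENCODE's transcripts, 40.873% of the 100-base windows of Oas1a also occur in Oas1g, with a longest identical run of 526 bases. Of those of the other 4 members, 0% occur in another gene. With 50-base windows the share was 57.571% for Oas1a, in Oas1g and Oas1b. It was 0.521% for Oas3, 0.138% for Oasl2 and 0% for Oas2 and Oasl1. The Oas1g share of the Oas1a and Oas1g counts ran from 8.66% in experienced LPS replicate 4 to 28.0% in naive LPS replicate 4. The division between these genes is therefore uncertain.

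Library totals ran from 7.72 M to 22.3 M (M, mega) expected counts, and the members had between 99 and 3605 counts each in any library. Expression is given as TPM, each gene's share of the library's transcripts after scaling for gene length, which lets genes be compared within a library. Experienced LPS replicate 4 had the smallest library and a mitochondrial share of 7.30% of its counts. Experienced PBS replicate 4 had a share of 5.94%, and the other 14 libraries lay between 1.91% and 4.26%. The sort gate's markers were present in every library: Kit between 115 and 232 TPM and Ly6a, which encodes Sca1, between 26.3 and 231 TPM. Among T cell genes, Cd3d and Cd3e reached at most 0.30 and 0.51 TPM, and Cd3g reached 5.66 TPM in naive LPS replicate 4 and at most 0.93 TPM elsewhere. Of the plasmacytoid dendritic cell genes, Siglech, Spib and Ccr9 reached at most 1.28, 0.66 and 1.20 TPM and Ly6d 3.74 TPM. The B cell gene Cd79b stood between 11.3 and 22.7 TPM and Nkg7, a granule gene of natural killer cells, between 91.1 and 190 TPM. The 6 neutrophil markers summed to between 26.5 and 707 TPM, with the highest sum in experienced PBS replicate 4. That sum was mostly Elane, at 16.9 to 628 TPM over the libraries. S100a8, S100a9 and Ngp reached at most 41.6, 19.05 and 15.1 TPM, and Ltf and Camp at most 2.65 and 2.05 TPM.

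Oasl2 had the highest level of the 5 members in 16 of 16 libraries. Oas1a ranked next in 12 libraries and Oasl1 last in 12. The summed TPM of the family averaged 151 ± 38.4 in experienced LPS, 209 ± 63.0 in naive LPS, 106 ± 33.3 in experienced PBS and 95.6 ± 8.01 in naive PBS cells (SD, n = 4 each). Oasl2 made up on average 38.5% of that sum in experienced LPS, 39.6% in naive LPS, 40.3% in experienced PBS and 42.4% in naive PBS cells. The mean level of every member followed 1 order: naive LPS highest, then experienced LPS, experienced PBS and naive PBS. In that order naive LPS did not differ from experienced LPS beyond the spread for any member after adjustment, nor experienced PBS from naive PBS, and experienced LPS differed from experienced PBS for Oas1a only.

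**Figure D1:**
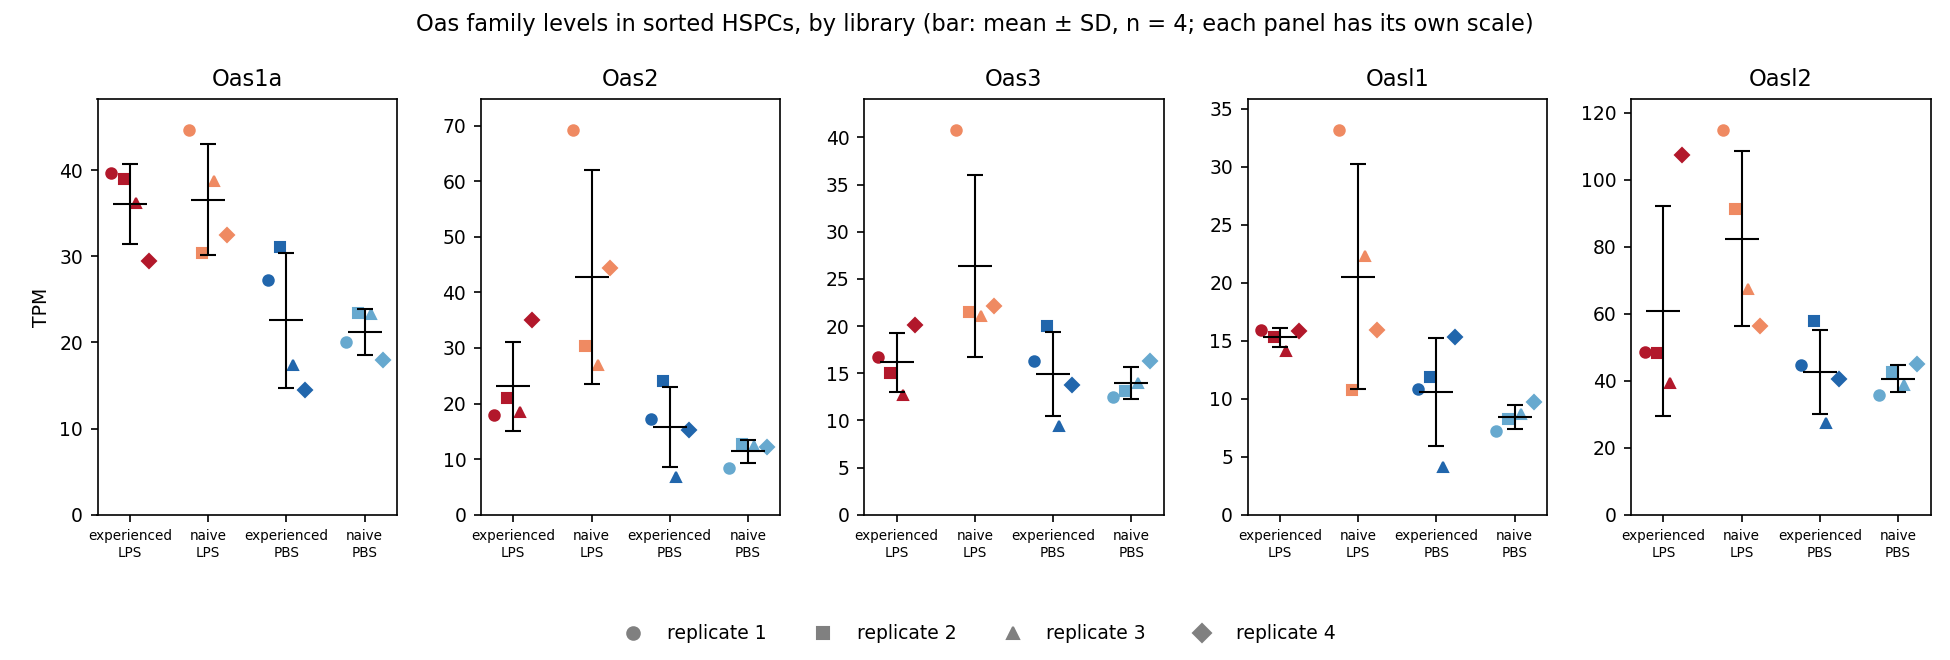
TPM (y axis, linear, from 0, scale set per gene) of each Oas gene in each library, by group on the x axis. Symbols are replicates 1 to 4, and the black bars are the mean ± SD of 4 libraries. For each of the 5 genes all 4 naive LPS libraries lie above all 4 naive PBS libraries, and naive LPS replicate 1 is the highest of its group.

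All 5 members had higher fitted levels with LPS in both kinds of mice, but only Oas1a was called in experienced mice, against all 5 in naive mice. A gene was called at a Benjamini-Hochberg adjusted p under 0.05 over all genes tested, by edgeR's quasi-likelihood test. In experienced mice 1 of 5 members was called higher in LPS than in PBS cells, where 4.52% of the genes tested were. All 5 differences were above 0 there, from 0.26 to 0.83 on the log2 scale with a median of 0.68, beside -0.025 for all genes tested. The TPM of LPS and PBS cells overlapped for all 5 in experienced mice, where 3.81% of genes were higher without overlap. In naive mice 5 of 5 members were called higher, where 9.81% of the genes tested were. Their log2 differences ran from 0.92 to 2.01 with a median of 1.06, beside 0.017 for all genes tested. The TPM of the naive groups did not overlap for any of the 5, where 4.2% of genes were higher without overlap.

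Oas1a, the mouse counterpart of human OAS1, had 39.7, 38.9, 36.2 and 29.5 TPM in experienced LPS cells, against 27.2, 31.1, 17.4 and 14.5 TPM in experienced PBS cells. In naive mice it had 44.7, 30.4, 38.8 and 32.4 TPM in LPS cells, against 20.1, 23.5, 23.3 and 18.0 TPM in PBS cells. In experienced mice only LPS replicate 4 fell below the highest PBS library, and the naive groups were well apart. Oas1a was 1.78-fold higher with LPS in experienced mice (log2 difference 0.83, SE 0.19, adjusted p = 0.00902). In naive mice it was 1.89-fold higher (log2 difference 0.92, SE 0.19, adjusted p = 0.00311). Its levels after LPS were nearly equal in both kinds of mice, at 36.1 ± 4.64 TPM in experienced and 36.6 ± 6.47 TPM in naive cells (SD, n = 4 each). The log2 difference between those groups was -0.059, with a 95% interval from -0.45 to 0.34. When the counts of Oas1a to Oas1h were summed, so that reads shared among them no longer matter, the LPS difference was 0.56 in experienced mice and was not called there (adjusted p = 0.0965). The summed difference was 0.72 in naive mice (adjusted p = 0.0273). That sum also holds Oas1b and Oas1c, both at -0.36 in experienced mice, so it cannot show what shared reads alone contribute. A sum of Oas1a and Oas1g only was not run. The call for Oas1a itself in experienced mice was lost when only the 2 groups compared were fitted (0.85, adjusted p = 0.0550) and with limma on log2(TPM + 1) (0.71, adjusted p = 0.0589).

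Oas2 had 17.9, 20.9, 18.5 and 35.0 TPM in experienced LPS cells, against 17.2, 24.1, 6.76 and 15.2 TPM in experienced PBS cells. It had 69.2, 30.4, 26.9 and 44.3 TPM in naive LPS cells, against 8.33, 12.8, 12.3 and 12.2 TPM in naive PBS cells. The experienced groups overlapped widely, while every naive LPS library held more than 2 times the Oas2 of every naive PBS library. In experienced mice the log2 difference was 0.69 with a 95% interval from -0.014 to 1.39 (adjusted p = 0.188). Without experienced LPS replicate 4 it was 0.41, and without experienced PBS replicate 3, the lowest library, 0.45. In naive mice Oas2 had the largest LPS difference of the family, 4.02-fold (log2 difference 2.01, SE 0.34, adjusted p = 0.000857).

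Oas3, the largest enzyme of the family, had 16.7, 15.0, 12.7 and 20.1 TPM in experienced LPS cells, against 16.4, 20.1, 9.45 and 13.7 TPM in experienced PBS cells. It had 40.8, 21.5, 21.1 and 22.2 TPM in naive LPS cells, against 12.4, 13.1, 14.0 and 16.3 TPM in naive PBS cells. In experienced mice the range with LPS lay within or close to the range with PBS, whereas in naive mice the groups were apart and 1 LPS library stood far above the rest. In experienced mice its log2 difference of 0.26 was the smallest of the family, with a 95% interval from -0.20 to 0.71 (adjusted p = 0.480). It was 0.16 without experienced LPS replicate 4, 0.42 without experienced PBS replicate 2 and 0.10 without experienced PBS replicate 3. In naive mice Oas3 was 2.04-fold higher with LPS (log2 difference 1.03, SE 0.22, adjusted p = 0.00365), and 0.85 higher on the log2 scale without LPS replicate 1 (adjusted p = 0.0142).

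Oas2 and Oas3 are neighbours on the chromosome, but their ratio was not constant. The ratio of Oas2 to Oas3 TPM was 1.07 to 1.74 in experienced LPS and 1.28 to 2.0 in naive LPS libraries, against 0.72 to 1.2 in experienced PBS and 0.67 to 0.98 in naive PBS libraries. The naive ranges do not overlap and the experienced ranges do. This ratio was chosen after the values were seen and was not tested.

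Oasl1, the member without synthase activity, had 15.9, 15.4, 14.1 and 15.8 TPM in experienced LPS cells, against 10.9, 11.9, 4.16 and 15.3 TPM in experienced PBS cells. It had 33.2, 10.8, 22.3 and 15.9 TPM in naive LPS cells, against 7.18, 8.29, 8.69 and 9.69 TPM in naive PBS cells. The 4 experienced LPS libraries were the tightest group of any member, and naive LPS the widest for this gene. In experienced mice the log2 difference of Oasl1 was 0.68 with a 95% interval from 0.029 to 1.33, and it was not called (adjusted p = 0.16). Without experienced PBS replicate 3, the lowest library, it was 0.43. Oasl1 was 2.42-fold higher with LPS in naive mice (log2 difference 1.27, SE 0.31, adjusted p = 0.00867).

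Oasl2 had 48.6, 48.1, 39.4 and 107 TPM in experienced LPS cells, against 44.6, 57.8, 27.5 and 40.5 TPM in experienced PBS cells. It had 115, 91.2, 67.4 and 56.2 TPM in naive LPS cells, against 35.8, 42.7, 38.9 and 44.9 TPM in naive PBS cells. With LPS, 3 of the 4 experienced libraries lay within the range of the experienced PBS libraries and replicate 4 stood far above it. In experienced mice the log2 difference was 0.56 (95% interval -0.069 to 1.18, adjusted p = 0.235), and 0.18 without replicate 4 of the LPS group, the library with the highest mitochondrial share. Oasl2 was 2.08-fold higher with LPS in naive mice (log2 difference 1.06, SE 0.30, adjusted p = 0.0195). That call was lost without naive LPS replicate 1 (0.88, adjusted p = 0.0605) and without naive PBS replicate 1 (0.99, adjusted p = 0.0550), 2 (1.01, adjusted p = 0.0566) or 3 (0.98, adjusted p = 0.0574).

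**Figure D2:**
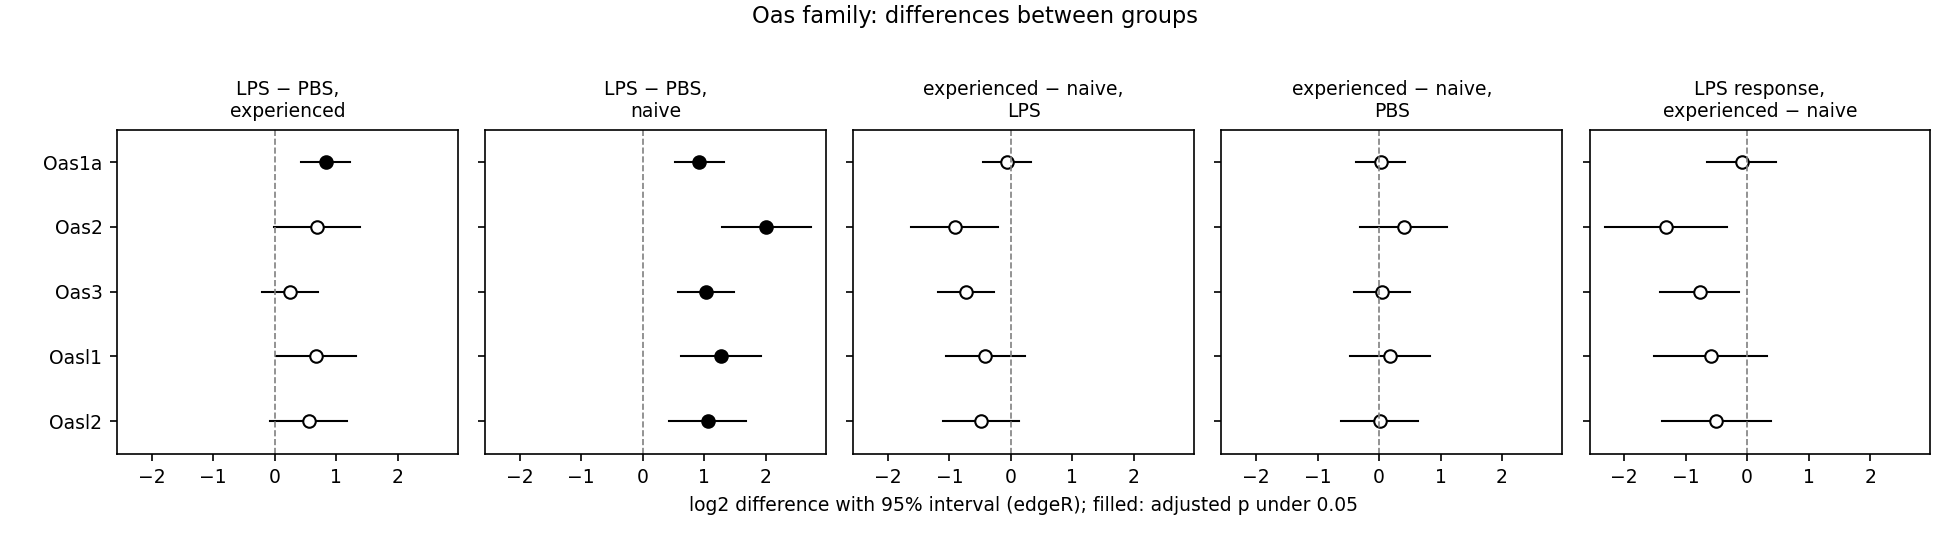
Log2 difference (x axis) of each Oas gene (y axis) in 5 comparisons by edgeR, with 95% intervals as lines; filled points have an adjusted p under 0.05. Oas1a alone is filled for LPS against PBS in experienced mice, all 5 in naive mice, and none in the comparisons of experienced with naive mice.

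Several marker genes of other blood cells moved with LPS, and their part in the Oas results was not tested. Of the 5 mast cell and basophil markers, 3 were called higher with LPS in experienced mice, where 4.52% of the genes tested were, and 5 in naive mice, where 9.81% were. Their summed TPM was 146 to 278 in experienced LPS and 184 to 401 in naive LPS libraries, against 34.5 to 113 in experienced PBS and 31.1 to 61.6 in naive PBS libraries. Of the 5 megakaryocyte markers, Itga2b and Gp1bb were called higher in both kinds of mice and none lower. The other 3, Pf4, Ppbp and Gp9, were not called. Their log2 differences were above 0 in experienced mice (1.09, 0.30 and 0.26) and below 0 in naive mice (-0.55, -0.79 and -0.72). Gp9 had 3.75 to 9.86 TPM in naive LPS libraries, against 11.5 to 15.8 TPM in naive PBS libraries. Among the 5 plasmacytoid dendritic cell markers, Bst2, which interferon also induces, was called higher in both kinds of mice. Ly6d was called lower in experienced (-3.56, adjusted p = 0.0109) and naive mice (-3.25, adjusted p = 0.0133), and Ccr9 was called lower in naive mice (-4.43, adjusted p = 0.0168). The summed TPM of 67.1 to 138 in experienced LPS and 95.1 to 140 in naive LPS libraries, against 28.4 to 60.02 in experienced PBS and 52.8 to 71.4 in naive PBS libraries, was mostly Bst2. Ly6a, the gate's own Sca1 gene, was higher with LPS by 1.87 in experienced and 1.72 in naive mice on the log2 scale (adjusted p = 0.00207 and 0.00237). Of the 6 HSPC markers listed, of which only Kit and Ly6a belong to the gate as described, Ly6a alone was called higher. Cd34 (-0.90 in experienced and -1.18 in naive mice) and Flt3 (-1.98 and -2.77) were called lower, and Kit, Cd48 and Slamf1 were not called. Of all genes tested, 8.26% were called lower in experienced and 11.9% in naive mice. Whether the mix of cells inside the gate changed with LPS was not tested. In bulk samples a change in the share of a cell type and a change in RNA per cell cannot be told apart.

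After LPS, all 5 members had lower fitted levels in experienced than in naive cells, but no member was called (0 of 5, where 0% of the genes tested were called lower). The log2 differences were -0.059 for Oas1a, -0.92 for Oas2, -0.73 for Oas3, -0.41 for Oasl1 and -0.49 for Oasl2, with a median of -0.49 beside -0.022 for all genes tested. At the threshold of 0.05 without adjustment 2 of 5 members, Oas2 and Oas3, were lower by edgeR, against 2.14% of the genes tested. With adjustment p was 0.9999 for each member, and DESeq2 and limma also called 0 members. For Oas3 all 4 experienced LPS libraries (12.7 to 20.1 TPM) lay below all 4 naive LPS libraries (21.1 to 40.8 TPM), where 0.724% of genes were lower without overlap, and the gap between the nearest libraries was small. The other 4 members overlapped. Without experienced LPS replicate 4 the differences were -1.21 for Oas2 and -0.85 for Oas3 (adjusted p = 0.276 for both). Without naive LPS replicate 1 they were -0.69 and -0.55. Oasl2 stood at -0.88 without experienced LPS replicate 4 (adjusted p = 0.276) and at -0.31 without naive LPS replicate 1. Oasl1 stood at -0.24 without naive LPS replicate 1 and at -0.63 without naive LPS replicate 2.

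The difference between both LPS responses, tested directly as an interaction, passed the threshold for no member (0 of 5, where 0% of the genes tested were called). Experienced minus naive, the LPS response differed by -0.087 for Oas1a, -1.32 for Oas2, -0.77 for Oas3, -0.59 for Oasl1 and -0.50 for Oasl2 on the log2 scale. Without adjustment 2 of 5 members, Oas2 (SE 0.47) and Oas3 (SE 0.30), passed the threshold of 0.05 by edgeR, against 3.06% of the genes tested with a lower response. The value for Oasl2 was -0.89 without experienced LPS replicate 4 and -0.33 without naive LPS replicate 1, and that for Oasl1 was -0.38 without experienced PBS replicate 4. The adjusted p of Oas2 and Oas3 was 0.884, and DESeq2 and limma called 0 members. The 95% intervals were -2.31 to -0.32 for Oas2 and -1.41 to -0.13 for Oas3. Those of Oas1a (-0.65 to 0.47), Oasl1 (-1.51 to 0.32) and Oasl2 (-1.38 to 0.38) included 0. The count of 1 called member in experienced against 5 in naive mice is thus not a tested difference between them.

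At rest, experienced and naive cells did not differ in any member beyond the spread: 0 of 5 were called (0% of the genes tested), 0 passed the threshold of 0.05 without adjustment by edgeR (1.96% of the genes tested were higher and 1.01% lower), and DESeq2 and limma called 0. The log2 differences after PBS were 0.028 for Oas1a, 0.40 for Oas2, 0.043 for Oas3, 0.18 for Oasl1 and 0.014 for Oasl2. The widest 95% interval, that of Oas2, ran from -0.30 to 1.10, and that of Oas1a from -0.37 to 0.42. The difference for Oas2 was 0.12 without experienced PBS replicate 2 and 0.64 without experienced PBS replicate 3. The spread differed between the groups: Oas2 stood at 15.8 ± 7.12 TPM in experienced PBS and 11.4 ± 2.07 TPM in naive PBS cells, and Oasl1 at 10.6 ± 4.67 and 8.46 ± 1.04 TPM in the same groups (SD, n = 4 each). Experienced PBS replicate 2 was the highest of its group for 4 of 5 members and replicate 3 the lowest for 4 of 5.

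**Figure D3:**
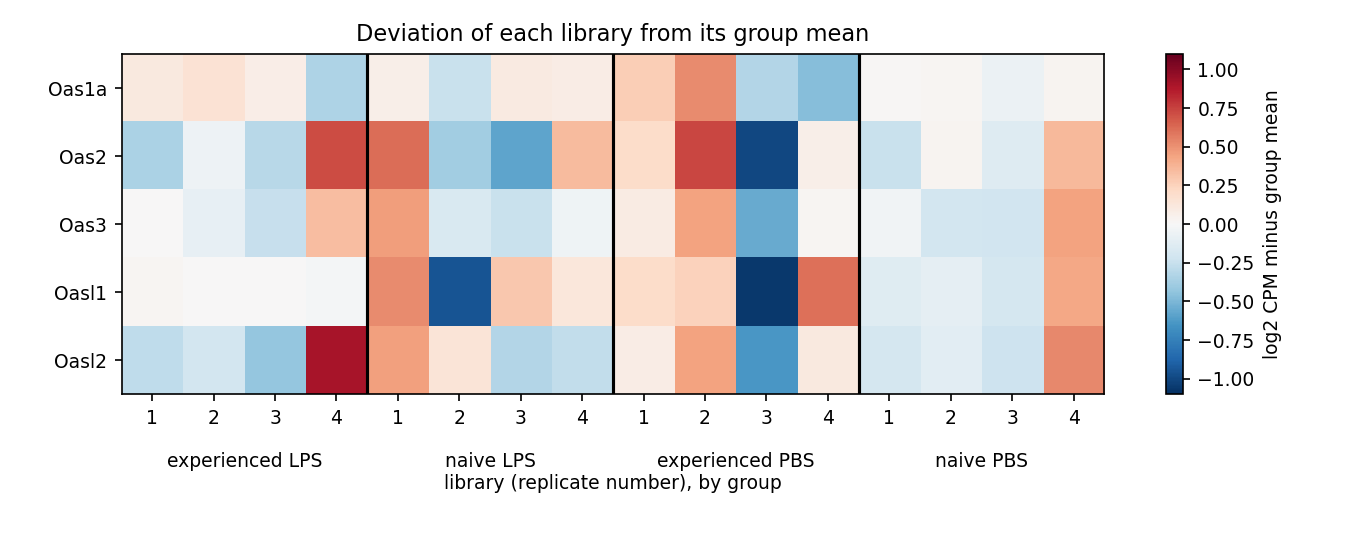
Each cell is 1 library's log2 CPM (counts scaled to library size by edgeR) minus the mean of its group, for the 5 genes (rows) in 16 libraries (columns, replicate numbers within groups); red is above and blue below the group mean. In experienced PBS cells Oas2, Oas3 and Oasl2 are all highest in replicate 2 and lowest in replicate 3. In naive LPS replicate 4 Oas2 is 0.35 above and Oasl2 below its mean, and in experienced LPS replicate 4 Oas1a is low and Oasl2 high.

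Within groups, Oas2, Oas3 and Oasl2 varied together from library to library and Oas1a followed them less. After each group's mean was removed, Pearson's r over the 16 libraries was 0.89 for Oas2 and Oas3, 0.88 for Oas3 and Oasl2 and 0.83 for Oas2 and Oasl2. Spearman's rho was 0.82, 0.82 and 0.76 for these pairs. Without the 2 libraries farthest from the median of the pair's first-named gene, r was 0.81, 0.84 and 0.77. Oas1a correlated at 0.30 with Oas2, 0.31 with Oas3 and -0.018 with Oasl2. Oasl1 lay between, with r from 0.35 to 0.65 against the other 4. Without the 2 libraries farthest for Oas1a, r of Oasl1 with Oas1a was 0.70, where it had been 0.35. Without the 2 farthest for Oas2 or for Oas3, r of Oasl1 was 0.42 with Oas2 and 0.41 with Oas3. Without its own 2 farthest libraries, r of Oasl1 with Oasl2 was 0.39. Without its own 2 farthest libraries Oas1a stood at 0.17, 0.17 and -0.21 with Oas2, Oas3 and Oasl2. These 10 correlations are descriptions, since the points share library depth and composition. Oasl2 is in the other cluster on the chromosome, so the trio that varied together is not a trio of neighbours.

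The genes whose log2 CPM most resembled each member were sought over the 16 libraries. For Oas1a these were the chemokine gene Ccl5 (r = 0.95), Ly6a (r = 0.95) and Ifitm1 (r = 0.95). For Oas2 they were Ifi213 (r = 0.95), H2-Q7 (r = 0.93) and Rtp4 (r = 0.93), and for Oas3 Rtp4 (r = 0.94), Gm12250 (r = 0.93) and Iigp1 (r = 0.93). For Oasl1 they were Lgals3bp (r = 0.95), Irf7 (r = 0.93) and Il18bp (r = 0.91), and for Oasl2 Ifi44 (r = 0.96), Rtp4 (r = 0.96) and Iigp1 (r = 0.95). Rtp4 thus stood among the nearest 3 genes of Oas2, Oas3 and Oasl2, whereas the nearest 3 of Oas1a and of Oasl1 were shared with no other member. The libraries share the LPS groups, which raises r for any gene that moved with LPS. With group means removed, r of these pairs ran from 0.78 (Oas1a with Ifitm1) to 0.94 (Oasl2 with Ifi44). It was 0.81 for Oas1a with Ly6a and 0.93 for Oasl2 with Rtp4. The genes were picked by r over the same libraries, so these values are descriptions and no separate test.

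Among the other Oas1 paralogues, Oas1f and Oas1h had 0 counts in all libraries and Oas1d and Oas1e had counts in 2 libraries each. The remaining 3, Oas1b, Oas1c and Oas1g, were tested and none was called in any comparison. Oas1g, also an active synthetase, had 10.5 ± 5.12 TPM in experienced LPS and 11.0 ± 4.20 TPM in naive LPS cells, against 9.31 ± 5.82 TPM in experienced PBS and 7.09 ± 1.23 TPM in naive PBS cells (SD, n = 4 each). Its LPS difference was 0.49 in experienced and 0.77 in naive mice, with 95% intervals that included 0 and with reads shared with Oas1a. Oas1c had a difference of -0.27 in naive mice (adjusted p = 0.488), with 2.35 to 3.63 TPM in naive LPS libraries, against 3.95 to 7.95 TPM in naive PBS libraries. Oas1b, which is truncated in C57BL/6 mice, had LPS differences of -0.36 in experienced and 0.37 in naive mice.

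Among genes that act on 2-5A or downstream of it, Pde12 was called higher with LPS in both kinds of mice and Abce1 in naive mice. Abce1, a ribosome recycling factor, had an LPS difference of 0.52 in experienced mice (adjusted p = 0.136) and was called higher in naive mice (0.82, adjusted p = 0.0165). Pde12, a phosphodiesterase that degrades 2-5A, was called higher in experienced (0.41, adjusted p = 0.0478) and naive mice (0.45, adjusted p = 0.0230). Akap7, which in mice also has 2-5A phosphodiesterase activity, had differences of -0.58 in experienced (adjusted p = 0.137) and -0.68 in naive mice (adjusted p = 0.0595).

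Of 10 other sensors of double-stranded RNA and their partners, 1 was called higher and 0 lower with LPS in experienced mice. In naive mice 5 were called higher and 1 lower. Of all genes tested, 4.52% were called higher and 8.26% lower in experienced mice, and 9.81% and 11.9% in naive mice. Zbp1, a sensor of Z-form nucleic acid, was called in both, at 1.41 in experienced (adjusted p = 0.0160) and 2.35 in naive mice (adjusted p = 0.000361). Ifih1, which encodes the cytosolic sensor MDA5, had a difference of 0.51 in experienced mice (adjusted p = 0.0818) and was called higher in naive mice (0.77, adjusted p = 0.00788). Trim25, a ubiquitin ligase that aids RIG-I, had a difference of 0.15 in experienced mice (adjusted p = 0.415) and was called higher in naive mice (0.46, adjusted p = 0.00844). Tlr3, the endosomal receptor for double-stranded RNA, was the gene called lower, with a log2 difference of -1.19 in experienced (adjusted p = 0.139) and -2.75 in naive mice (adjusted p = 0.00251), at levels of 0.17 to 0.78 TPM in experienced LPS and 0.09 to 0.31 TPM in naive LPS, against 0.66 to 1.93 TPM in experienced PBS and 0.66 to 1.84 TPM in naive PBS libraries. The median of the list was 0.089 in experienced and 0.43 in naive mice.

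Upstream, 2 of 12 interferon signalling genes were called higher and 1 lower with LPS in experienced mice, and 5 higher and 1 lower in naive mice. Of all genes tested, 4.52% were called higher and 8.26% lower in experienced mice, and 9.81% and 11.9% in naive mice, so the share of the list called lower was near or below that of all genes. Irf7, the transcription factor that Oasl1 restrains, had 54.4, 45.5, 37.8 and 64.6 TPM in experienced LPS cells, against 18.0, 25.7, 10.7 and 20.3 TPM in experienced PBS cells. It had 117, 44.7, 84.3 and 71.6 TPM in naive LPS cells, against 13.2, 22.6, 16.4 and 19.2 TPM in naive PBS cells. Neither pair of groups overlapped, and Irf7 was higher with LPS by 1.69 in experienced (adjusted p = 0.00184) and 2.33 in naive mice (adjusted p = 0.000113). Usp18, a negative regulator of the interferon receptor, was higher by 1.41 (adjusted p = 0.00205) in experienced and 1.65 (adjusted p = 0.000401) in naive mice. Ifnar1, a chain of the type I interferon receptor, was lower in experienced (-0.61, adjusted p = 0.00508) and naive mice (-0.63, adjusted p = 0.00261). Of 20 interferon ligand genes, 16 were at 0 TPM in all 16 libraries, none was tested, and the highest value of any was 0.29 TPM. None of the genes of these lists was called between experienced and naive mice at rest, after LPS or in the interaction by edgeR.

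**Figure D4:**
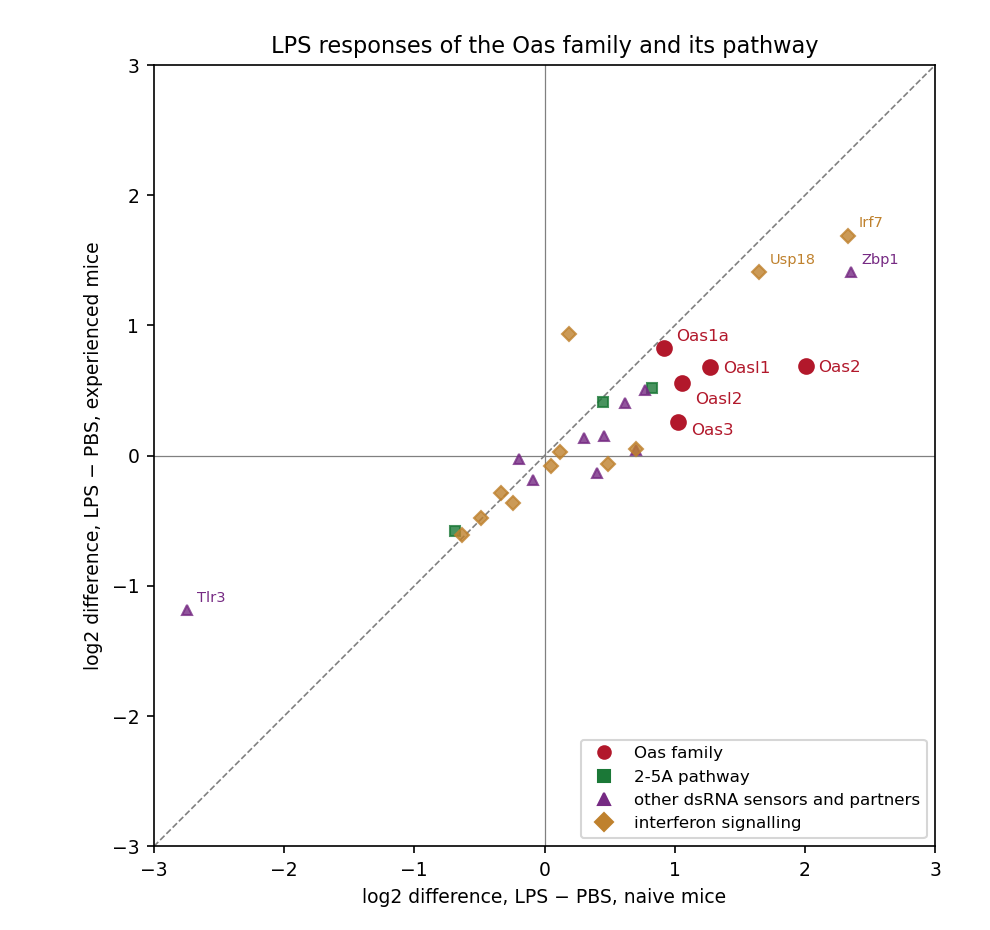
Log2 difference between LPS and PBS in experienced mice (y axis) and naive mice (x axis) for the 5 Oas genes and other genes of 3 lists; each point is 1 gene and the dashed line marks equal differences. Oas1a lies near the line, at 0.83 in experienced and 0.92 in naive mice, and Oas2 lies farthest below it among the family, at 0.69 in experienced and 2.01 in naive mice.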

How the data were processed

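RNA of sorted HSPCs was measured in 16 biological replicates, 4 per group. The labels list 2 technical replicates for each, with 1 table per biological replicate, and name a single-cell library kit. The tables hold 1 value per gene and were treated as bulk RNA-seq.

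The submitters' processing notes name Trim Galore 0.6.7, STAR 2.7.10a, RSEM 1.3.1 and the build GRCm38. The sources used here do not give an annotation release or a strand setting. The authors deposited RSEM expected counts (estimates, not always whole) and TPM, per the file headers. GENCODE's GRCm38 annotation named 45143 of 45706 identifiers.

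Expected counts were rounded. Genes passing edgeR's expression filter by group (15186, holding 99.9% of counts) were scaled by TMM and fitted in edgeR 4.0.16 (R 4.3.3) by quasi-likelihood, with 1 mean per group over 16 libraries (12 residual degrees of freedom, biological coefficient of variation 0.306). A gene was called at an adjusted p (Benjamini-Hochberg, over all genes tested) under 0.05. SE and 95% intervals came from the same fit. Log2 CPM used a prior count of 2. The test was checked on simulated counts. Alternatives were DESeq2 1.42.0, limma 3.58.1 on log2 TPM with pseudocounts of 1 and 0.1, other scalings, no filter, 2-group fits, summed paralogues, a replicate block and leaving out libraries. Promoter windows and motifs came from RefSeq. Depth limits the precision of low genes, and RSEM's division of shared reads that of Oas1a and Oas1g.

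The members and lists were chosen with earlier results of these data known. Genes named were the 5 members, up to 4 genes per list by lowest adjusted p for LPS in naive mice, and for each member the 3 genes with the highest Pearson correlation. Lists of marker genes are given by counts and sums. Bst2, Ly6a and the other markers of HSPCs and of other blood cells were named beside that rule, after their values were seen. Some genes of the lists are not reported here.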

Additional observations from a re-analysis of the deposited data

Results flagged for a closer look

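In 3 of the 20 sets of 4 libraries (5 members in 4 groups), 1 library stood apart from the others by Dixon's test at the 95% level. Chance alone flags about 1 in 20 such sets. Oasl2 was 107.28 TPM in experienced LPS replicate 4, against 39.4 to 48.6 TPM in the other 3 libraries of that group. That library was also the smallest, with the highest mitochondrial share (7.30%), and there Oas1a was the lowest of its group at 29.5 TPM. Oas3 was 40.8 TPM in naive LPS replicate 1, against 21.1 to 22.2 TPM in the other 3, and this library was the highest of its group for all 5 members. Oas2 was 8.33 TPM in naive PBS replicate 1, against 12.2 to 12.8 TPM in the other 3.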

How the results depend on the processing

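The count of called members for LPS in experienced mice was 1, and 1 with each library left out, but 0 with limma on log2(TPM + 1), with limma on log2(TPM + 0.1), with only the 2 groups compared in the fit and with paralogue counts summed. In that last setting the sum of Oas1a to Oas1h stood for Oas1a, and 1 sum of Oasl1 and Oasl2 stood for both. For LPS in naive mice the count of called members was 5, and 4 to 5 when single libraries were left out. It was 0 under every alternative run for experienced against naive mice at rest, after LPS and in the interaction. Of the single-gene values, 615 kept their direction and side of the threshold, 8 lost a call and 22 changed sign, all uncalled. At rest the sign changed under 10 alternatives for Oasl2, 3 for Oas1a, 3 for Oas3 and 2 for Oasl1. Among these were Oasl2 with upper-quartile factors (-0.016), with no filter (-0.0090) and without both libraries of high mitochondrial share (-0.010), and Oasl1 without those libraries (-0.025). With libraries left out in turn, values at rest ran from -0.17 to 0.15 for Oas1a, 0.12 to 0.64 for Oas2, -0.12 to 0.20 for Oas3, -0.036 to 0.43 for Oasl1 and -0.15 to 0.22 for Oasl2. Oas1a ran from -0.13 to 0.044 after LPS (0.043 without both libraries) and from -0.22 to 0.11 in the interaction. The causes were not tested.

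With the replicate number as a block, Oas1a at rest was -0.0040 and no call of a member changed: Oas1a stood at 0.85 for LPS in experienced mice (adjusted p = 0.0128) and Oas2 at 1.97 in naive mice (adjusted p = 0.000703). Of 24 same-numbered pairs of libraries 4 correlated above 0.1, and 3 of these were in experienced LPS with experienced PBS (0.175, 0.222 and 0.321, but -0.123 for replicate 3). The numbers were therefore not taken as pairing the libraries. The number of all genes called for LPS in experienced mice was 1940, and 3157 without experienced LPS replicate 4, 1105 to 1230 without replicates 1 to 3 of that group, 1065 and 1108 without experienced PBS replicates 1 and 2, 3360 without both libraries of high mitochondrial share, 1179 in the 2-group fit and 1132 and 1107 with limma. In naive mice it was 3293, and 1880 and 1772 with limma, 2089 to 2401 without single naive PBS libraries.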
